A study of Mus musculus with 6 samples.

Results

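Genes of bone, cartilage, tendon and mineral handling were followed in RNA-seq of MEFs (mouse embryonic fibroblasts), cultured cells of the embryo's connective tissue. They were taken by symbol from a table of 17092 genes: *Runx1*, *Runx2*, *Runx3*, *Alpl*, *Enpp1*, *Mgp*, *Acan*, *Comp*, *Scx* and *Tnmd*, 10 genes in all. The comparison was between 3 libraries from wild-type (WT) mice and 3 libraries from *Aff3ir-ORF2*-/- (KO) mice, in which Cas9 and guide RNAs injected into fertilized eggs had disrupted the *Aff3ir-ORF2* locus, a gene nested within *Aff3*. The knockout is carried in the germline, both genotypes were grown without a further treatment, and the libraries carry no age, sex or embryo of origin in their labels. Nothing states that the 3 libraries of a genotype came from separate embryos or cultures, so the p-values measure the spread between these libraries, which may be technical. The targeted gene was not analysed here.

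Bone, cartilage and tendon arise from mesenchymal progenitors under a small set of transcription factors. Runx proteins bind DNA together with the partner Cbfb: Runx2 is the master regulator of osteoblasts, Runx1 is best known from blood stem cells and is also active in skeletal progenitors, and Runx3 acts in cartilage, neurons and immune cells. Scleraxis (*Scx*) marks tendon progenitors, and tenomodulin (*Tnmd*), a membrane protein of mature tendon, lies downstream of it. Aggrecan (*Acan*) is the large proteoglycan of cartilage, and *Comp* encodes the thrombospondin-family protein of cartilage and tendon matrix. Whether a matrix calcifies is set in part by pyrophosphate, which blocks mineral growth: *Enpp1* makes it from extracellular ATP, *Alpl* (tissue-nonspecific alkaline phosphatase) breaks it down, and *Mgp* encodes matrix Gla protein, a vitamin K-dependent inhibitor of calcification.

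The 3 Runx genes share a stretch of sequence at one of their promoters, which is shown because all members of the family have it. In the RefSeq promoter table of build GRCm38.p6 (250 bases before to 50 after each start), 7 of the 10 genes were matched, and *Mgp*, *Comp* and *Scx* were not. The Runx core motif was searched as TGTGGT on both strands and was found in 2265 of 17059 promoters (13.3%). Each of the 30-base windows below is written on the gene's own strand, and the capitals mark ACCACA, the motif read on the opposite strand, whose copies begin 8 bases apart.
*Runx1*: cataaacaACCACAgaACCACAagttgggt
*Runx2*: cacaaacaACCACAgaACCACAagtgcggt
*Runx3*: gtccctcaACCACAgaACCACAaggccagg
The *Runx1* window lies at chr16:92826025-92826054 on the minus strand, and its copies begin at bases 29 and 37 counted from the start site. The *Runx2* window lies at chr17:44814583-44814612 on the minus strand, with copies at bases 24 and 32 and a further copy of the motif 80 bases before the start site. The *Runx3* window lies at chr4:135120503-135120532 on the plus strand, with copies 134 and 126 bases before the start site. This spacing, chosen after the sequences had been seen, occurred in 3 of the 17059 promoters (0.0176%), and those 3 were the promoters shown. At least 2 copies in any arrangement occurred in 207 promoters (1.21%). The second listed promoters of *Runx1* and *Runx3* held no copy, *Enpp1* held 1, and *Alpl*, *Acan* and *Tnmd* held none. The E-box CATCTG, searched for scleraxis on both strands, was in 12.8% of all promoters and, among the 7 matched genes, only in the second *Alpl* promoter. These matches are letters in a window and were not measured as bound sites.

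In *Aff3ir-ORF2*-/- MEFs, 4 of the 10 genes rose and 1 fell. *Mgp* was 15.2-fold, *Comp* 7.26-fold, *Enpp1* 3.63-fold and *Scx* 2.19-fold higher than in WT, and *Acan* was 2.21-fold lower. *Runx1*, *Runx2* and *Tnmd* were lower by less than 1.5-fold, *Runx3* was not separated between the genotypes, and *Alpl* had too few counts for the test. A gene was called when edgeR's quasi-likelihood test gave a Benjamini-Hochberg adjusted p below 0.05 over all 13075 tested genes and the change was at least 1.5-fold. Of all tested genes, 14.2% were called higher and 7.27% lower, against 4 and 1 of the 9 tested genes here. *Comp*, with 10, 9 and 6 counts in WT, passed the filter on low counts only through the KO libraries and could not have been called lower. *Acan*, with 6, 21 and 22 counts in KO, passed it only with the WT libraries, so its test favoured a fall. With at least 10 counts in every library, 3 of the genes were higher. Under the adjusted p alone, 56.8% of all tested genes passed, and 8 of these 9 did. For 8 of the 9, every KO library lay on the same side of every WT library in normalized counts, which held for 66% of all tested genes. The median log2 fold change was 0.29 over the 9 genes and 0.01 over all tested genes.

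**Figure D1:**
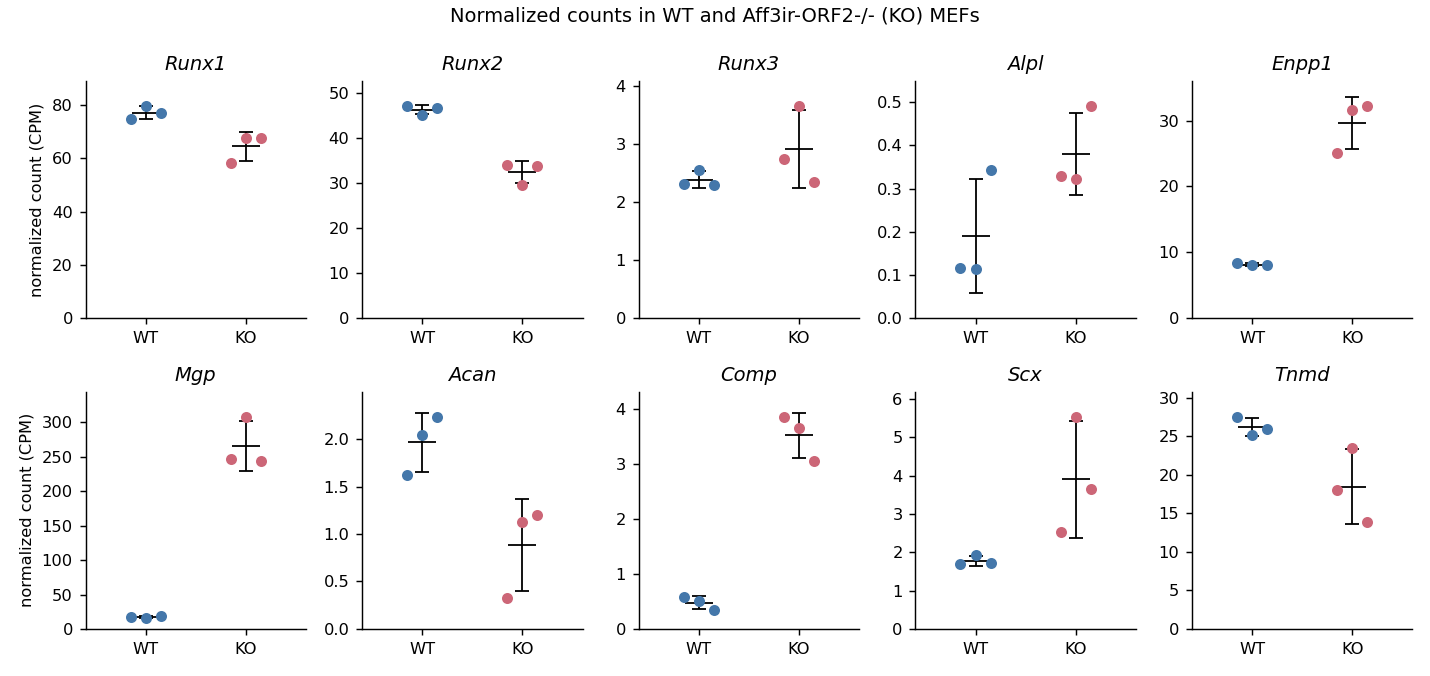
Normalized counts (CPM, counts scaled to library size with TMM factors, each panel with its own axis from 0) of the 10 genes in WT and *Aff3ir-ORF2*-/- (KO) libraries. Points are libraries, in the order 1 to 3 from left to right, and the bars are the mean ± SD (n = 3); the genotypes are apart in every panel except *Runx3* and *Alpl*, with *Mgp* at 17.5 and 266 CPM.

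Total counts per library were 17435133 to 17726034 in WT and 18209421 to 18252330 in KO. The KO libraries varied more among themselves: the biological coefficient of variation was 0.0184 in WT and 0.0996 in KO, and 0.064 in KO without replicate 2. Chi-square per degree of freedom between pairs of libraries was 1.38 to 1.71 in WT and 5.56 to 18.9 in KO, so every pair differed by more than sampling noise. Fibroblast markers summed to 27950 to 28040 CPM in WT and 24290 to 30490 CPM in KO, so the labelled cell type was present in both. All 18 macrophage markers were called higher in KO, beside 14.2% of all tested genes. Their sums were 22.1 to 25.8 CPM in WT and 1445 to 2466 CPM in KO. Several, among them *C1qa*, *C1qb*, *C1qc*, *Spi1*, *Trem2* and *Tyrobp*, had at most 6 counts in each WT library. These passed the filter on low counts only through the KO libraries and could not have been called lower. Muscle markers summed to 86.2 to 88.5 and 265 to 375 CPM, nearly all from *Acta1* and *Des*, with *Myf5*, *Pax7* and *Myh3* at 0 to 3 counts. Endothelial markers summed to 8.24 to 8.99 and 16.8 to 21.7 CPM, with *Kdr*, *Vwf* and *Erg* called higher and *Cdh5* lower. Epithelial markers summed to 22.1 to 22.9 and 12.3 to 24.5, and T cell markers to 0.986 to 1.20 and 0.879 to 1.45. The part of these other cell markers in the values of the 10 genes was not tested, and in bulk RNA more cells of a type and more RNA per cell cannot be told apart.

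The largest change among the 10 genes was in the calcification inhibitor *Mgp*. Its counts were 303, 283 and 328 in the WT libraries and 4484, 5733 and 4483 in the KO libraries. The lowest KO library lay far above the highest WT library, and KO replicates 1 and 3 were nearly equal with replicate 2 above them. On the scale of normalized counts this was 17.5 ± 1.34 CPM in WT and 266 ± 36.1 CPM in KO (SD, n = 3 each). The log2 fold change was 3.93 ± 0.11 (SE, 95% interval 3.66 to 4.19, adjusted p = 5.68e-07, edgeR quasi-likelihood test). Of the 13075 tested genes, 98.4% had a smaller log2 fold change than *Mgp*. Across all alternative settings the log2 fold change stayed between 3.81 and 3.98.

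*Enpp1*, which produces the mineral inhibitor pyrophosphate, also rose. Its counts were 144, 141 and 141 in WT and 456, 588 and 590 in KO. The WT libraries were almost identical, and KO replicate 1 was the lowest of its genotype yet well above all WT libraries. The mean went from 8.15 ± 0.179 to 29.6 ± 3.95 CPM, a log2 fold change of 1.86 ± 0.11 (SE, 95% interval 1.62 to 2.10, adjusted p = 1.74e-06).

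*Alpl*, whose enzyme removes pyrophosphate, was close to the limit of the counts. It had 2, 2 and 6 counts in WT and 6, 6 and 9 in KO, or 0.191 ± 0.132 and 0.381 ± 0.0952 CPM. WT replicate 3 equalled the lower KO libraries in counts, so the genotypes touched, and the gene did not pass the filter on low counts. In a fit of 17065 genes without that filter the log2 fold change was 0.95 with a 95% interval of -0.31 to 2.21 (adjusted p = 0.215, edgeR), so a difference was not detectable at this depth. Of the 3 genes of mineral control, *Mgp* and *Enpp1* rose, and the phosphatase gene could not be judged.

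Among the matrix genes of cartilage, *Comp* and *Acan* went opposite ways. *Comp* had 10, 9 and 6 counts in WT and 70, 68 and 56 in KO, so every KO library held several times the count of any WT library. The means were 0.479 ± 0.122 and 3.52 ± 0.413 CPM, and the log2 fold change was 2.86 ± 0.25 (SE, 95% interval 2.29 to 3.43, adjusted p = 1.58e-05). *Comp* remained a gene of few counts in both genotypes, and with a minimum of 10 counts in every library it could not be tested.

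*Acan* had 28, 36 and 39 counts in WT and 6, 21 and 22 in KO. The genotypes did not overlap, but KO replicate 1 stood well below the other KO libraries. The means were 1.97 ± 0.312 and 0.885 ± 0.483 CPM, with a log2 fold change of -1.14 ± 0.37 (SE, 95% interval -1.98 to -0.31, adjusted p = 0.0253). This call was lost without WT replicate 2 (log2 fold change -1.12, adjusted p = 0.0762) or WT replicate 3 (-1.05, adjusted p = 0.0924), and without KO replicate 1 the log2 fold change was -0.76. Like *Comp*, it could not be tested at a minimum of 10 counts in every library. *Acan* passed the main filter on low counts only with the WT libraries, since KO replicate 1 held 6 counts. A rise and a fall of *Acan* thus did not have an even chance of being called.

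The tendon pair also parted. *Scx*, the transcription factor, had 29, 34 and 30 counts in WT and 46, 103 and 67 in KO. All KO libraries were above all WT libraries, and KO replicate 2 held more than the others of its genotype. The means were 1.78 ± 0.137 and 3.90 ± 1.52 CPM, and the log2 fold change was 1.13 ± 0.29 (SE, 95% interval 0.49 to 1.78, adjusted p = 0.00784). Without KO replicate 2 it was 0.79, still called. *Scx* lies inside the region of *Bop1* on the opposite strand with no shared exon bases in GENCODE M21, and *Bop1* itself changed by -0.30 on the log2 scale (adjusted p = 0.00155, less than 1.5-fold).

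*Tnmd* had 474, 443 and 453 counts in WT and 328, 438 and 254 in KO. KO replicate 2 came near the WT libraries, at 23.5 CPM beside a lowest WT value of 25.2 CPM, and KO replicate 3 was the lowest at 13.8 CPM. The log2 fold change was -0.51 ± 0.17 (SE, 95% interval -0.91 to -0.10, adjusted p = 0.0411), a 1.42-fold lower level that missed the 1.5-fold threshold. Without KO replicate 2 it was -0.72 (adjusted p = 2.15e-05) and past both thresholds, whereas several other settings gave an adjusted p above 0.05, up to 0.121 without WT replicate 1. A rise of *Scx* was thus not accompanied by a rise of *Tnmd* in any of the 3 KO libraries.

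**Figure D2:**
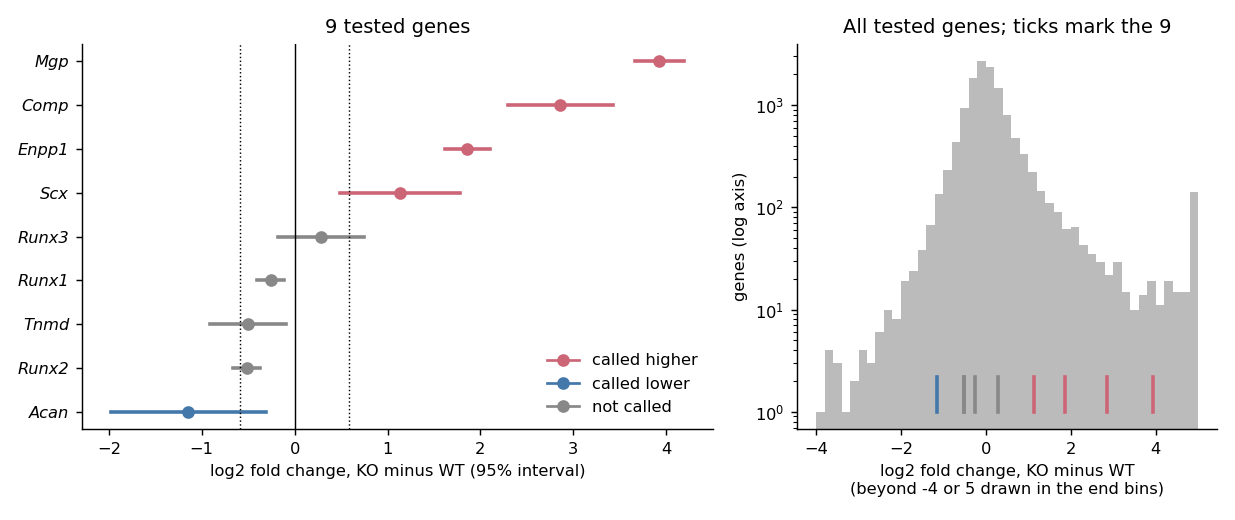
Left, log2 fold change (KO minus WT) of the 9 tested genes with 95% intervals; dotted lines mark 1.5-fold in each direction. Right, the distribution over all 13075 tested genes on a log axis of gene counts, with ticks at the 9 genes; *Mgp* lies at 3.93 and *Acan* at -1.14.

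The Runx genes changed by smaller amounts. *Runx2* had 812, 794 and 818 counts in WT and 619, 553 and 620 in KO, and the genotypes were clearly apart. Its mean was 46.4 ± 1.04 CPM in WT and 32.5 ± 2.43 CPM in KO, a log2 fold change of -0.51 ± 0.07 (SE, 95% interval -0.66 to -0.37, adjusted p = 1.31e-04). The 1.43-fold lower level passed the adjusted p but not the 1.5-fold threshold. *Supt3*, a transcription cofactor gene that overlaps *Runx2* on the opposite strand without shared exon bases, was called lower (log2 fold change -0.93 ± 0.13, adjusted p = 2.02e-04). A further annotated transcript, *Runx2os1*, shares 519 exon bases with *Runx2* on the opposite strand. Whether the counting used strand is not given in the sources used here, so reads of such partners could not be told apart.

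*Runx1* had 1287, 1398 and 1346 counts in WT and 1061, 1263 and 1239 in KO. The highest KO library, at 67.8 CPM, was below the lowest WT library, at 74.6 CPM. The mean went from 77.1 ± 2.44 to 64.5 ± 5.43 CPM, a log2 fold change of -0.26 ± 0.06 (SE, 95% interval -0.40 to -0.11, adjusted p = 0.00713) and 1.19-fold lower. An annotated antisense transcript, *Gm26626*, shares 106 exon bases with *Runx1*.

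*Runx3* had 40, 45 and 40 counts in WT and 50, 68 and 43 in KO. The lowest KO library was within the WT range in CPM, so the genotypes overlapped. The log2 fold change was 0.29 ± 0.21 (SE, 95% interval -0.18 to 0.75, adjusted p = 0.261), an interval that holds no change as well as a 1.5-fold rise. *Runx1* and *Runx3* are also expressed by macrophages, whose markers differed between the genotypes as given above, and the part of such cells in these values was not tested.

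Per kilobase of exon, which allows a rough comparison of levels between genes, *Tnmd* was the highest of the 10 in WT at 19.4 CPM per kb and *Mgp* the second at 14.7. *Runx1* and *Runx2* followed at 6.41 and 5.25, then *Scx* at 0.886, *Enpp1* at 0.794, *Runx3* at 0.478, *Acan* at 0.264, *Comp* at 0.161 and *Alpl* at 0.0474. No neighbours in this WT order overlapped in their 3 libraries. In KO the first place went to *Mgp* at 224 CPM per kb, ahead of *Tnmd* at 13.6, and *Enpp1* at 2.88, *Scx* at 1.94 and *Comp* at 1.19 stood above *Runx3* at 0.582. *Runx1* at 5.37 and *Runx2* at 3.68 kept their order, and *Acan* at 0.119 came next to *Alpl* at 0.0944. In KO the libraries of *Enpp1* and *Scx*, of *Scx* and *Comp*, and of *Acan* and *Alpl* overlapped. Exon lengths were the union of exons in GENCODE M21, which may differ from the annotation used for counting. The union takes in the exons of all annotated transcripts, so it can exceed the expressed transcript by a different factor in each gene. The order of genes with close levels may follow from these lengths.

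**Figure D3:**
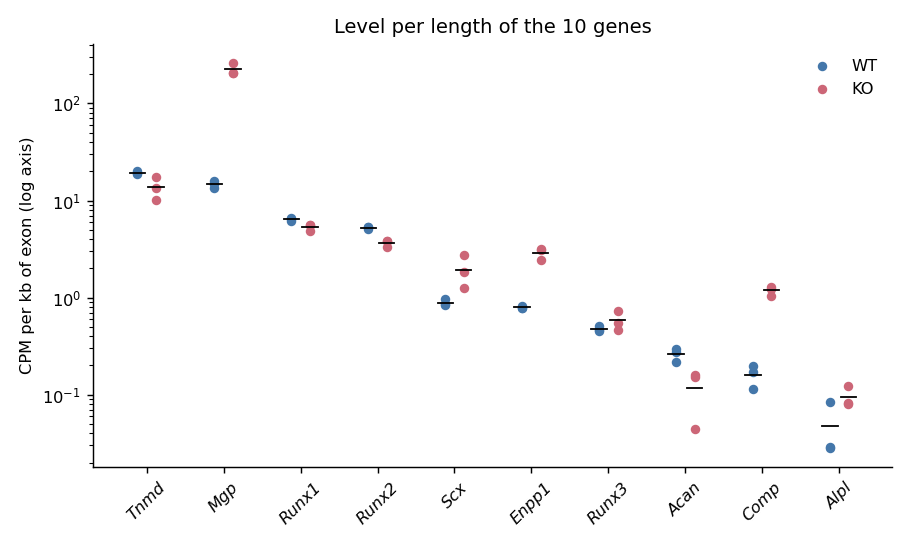
Level of each gene as CPM per kb of exon on a log axis, ordered by the WT mean. Points are libraries and short lines are means (n = 3); *Mgp* moves from 14.7 to 224 CPM per kb and passes *Tnmd*.

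In the bone list of osteoblast factors and bone matrix genes, 2 of 13 tested genes were higher and 1 lower (20 of 26 listed were in the table), shares near the 14.2% and 7.27% of all tested genes. The median log2 fold change was -0.08. The higher genes were *Spp1* (osteopontin, a phosphoprotein of bone matrix that macrophages also make), at 2.06 ± 0.16 on the log2 scale (SE, adjusted p = 1.12e-04), and *Msx2*, a homeobox factor, at 1.00 ± 0.24 (adjusted p = 0.00670). *Phex*, an osteoblast and osteocyte peptidase gene whose loss causes phosphate wasting, was lower at -2.38 ± 0.25 (adjusted p = 4.16e-05), with counts of 79, 67 and 67 in WT and 18, 9 and 16 in KO. *Phex* passed the filter on low counts only with the WT libraries, since KO replicate 2 held 9 counts, so its test favoured a fall. With at least 10 counts in every library it could not be tested. The genes with the most counts were not called: the collagen I genes *Col1a1* and *Col1a2* had log2 fold changes of -0.49 and -0.41, and *Sparc* (osteonectin) 0.08. Of the genes that define osteoblasts, *Ibsp* and *Dmp1* were near 0, with at most 4 counts and 1 count in a library. *Sp7* (osterix) was low, at 8 to 17 counts, and was not tested. The osteoblast marker sum, 4.27 to 5.05 CPM in WT and 1.02 to 1.98 CPM in KO, was mostly *Phex* in WT (4.08 CPM), and *Sp7* was at 0.478 CPM in WT and 0.672 CPM in KO.

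The mineralization list held other genes of phosphate, pyrophosphate and vitamin K handling. Of 13 tested (15 of 16 listed were in the table), 3 were higher and none lower, with a median of 0.23 and 11 past the adjusted p alone, against 14.2%, 7.27% and 56.8% of all tested genes. The higher genes were *Nt5e* (CD73, which turns AMP into adenosine and phosphate) at a log2 fold change of 2.19 ± 0.17 (SE, adjusted p = 7.86e-06), *Smpd3* (neutral sphingomyelinase, needed for bone mineralization) at 2.33 ± 0.34 (adjusted p = 3.32e-04) and *Entpd1* (CD39, which removes phosphates from ATP and is common on immune cells) at 1.42 ± 0.26 (adjusted p = 0.00135). *Smpd3*, with 9, 6 and 7 counts in WT, passed the filter on low counts only through the KO libraries and could not have been called lower. The genes with the most counts, *Anxa2*, *Anxa5* and *Anxa6* of the annexins found in matrix vesicles, were at -0.26, 0.08 and -0.22 and not called. Named after their values were seen, *Ank*, which carries ATP and pyrophosphate out of the cell, was at 0.23, and the vitamin K cycle genes *Ggcx* and *Vkorc1* were at 0.45 and 0.48 (adjusted p = 0.0172, 0.00205 and 0.00148). The phosphate carrier genes *Slc20a1* and *Slc20a2*, likewise named afterwards, went the other way, at -0.22 and -0.23 (adjusted p = 0.00206 and 0.0119). None of these genes was called.

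The cartilage list had the highest median of the lists, 0.77, with 10 of 21 tested genes higher and 1 lower (31 of 36 listed were in the table), beside 14.2% and 7.27% of all tested genes. *Sox9*, the master factor of cartilage, was the 1 that fell: 343, 359 and 346 counts in WT and 196, 153 and 204 in KO, a log2 fold change of -0.999 ± 0.109 (SE, adjusted p = 5.19e-05). The collagen genes *Col10a1*, of hypertrophic cartilage, and *Col11a1*, of the cartilage fibril, rose by 2.84 ± 0.21 and 2.05 ± 0.13 on the log2 scale (adjusted p = 6.32e-06 and 2.83e-05). The transcription factor genes *Trps1* and *Sox5* rose by 0.75 and 1.46 (adjusted p = 2.86e-04 and 3.11e-04), and *Nkx3-2* was called higher from 2, 2 and 1 counts in WT to 14, 14 and 18 in KO. *Nkx3-2* passed the filter on low counts only through the KO libraries and could not have been called lower. The same held for *Barx1*, called higher and named after its value was seen, with 10, 7 and 4 counts in WT. With at least 10 counts in every library, 8 genes of the list were higher. Named after their values were seen, *Col2a1* (the main cartilage collagen) had 43, 44 and 47 counts in WT and 181, 177 and 360 in KO, and *Prg4* (lubricin, of the joint surface) 53, 43 and 24 against 110, 170 and 153, both called higher. After *Col11a1*, the genes with the most counts were *Chsy1* and *Chst11*, of chondroitin sulphate synthesis, at -0.33 and 0.15 and not called. *Acan* thus fell like *Sox9*, whereas *Comp* rose. Chondrocyte markers, which include *Acan* and *Sox9*, summed to 24.5 to 25.4 CPM in WT and 19.4 to 32.6 CPM in KO.

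In the tendon list, 7 of 23 tested genes were higher and 3 lower, with a median log2 fold change of 0.45 (all 26 listed were in the table), beside the same shares of all tested genes. The immediate-early factor genes *Egr1* and *Egr2*, which act in tendon collagen expression and in many other settings, had log2 fold changes of -2.89 and -3.57 (SE 0.11 for both, adjusted p = 1.66e-06 and 6.01e-08). *Egr2* went from 861, 896 and 867 counts in WT to 90, 62 and 81 in KO. *Htra3*, a secreted protease gene, was the other lower gene at -0.78 (adjusted p = 0.0127). The cofactor gene *Eya1* rose by 0.85, and the matrix genes *Angptl7* and *Prelp* by 4.06 and 2.17 (adjusted p = 2.88e-04, 3.46e-04 and 4.08e-04). *Angptl7*, with 3, 6 and 3 counts in WT, passed the filter on low counts only through the KO libraries and could not have been called lower. The same held for *Chodl*, called higher and named after its value was seen, with 3, 1 and 0 counts in WT. With at least 10 counts in every library, 5 genes of the list were higher. The genes with the most counts, *Tnc*, *Col12a1* and *Bgn*, were at -0.45, -0.51 and 0.05 and not called. *Mkx*, which together with *Scx* and *Tnmd* marks tenocytes and was named after its value was seen, was at 0.49 ± 0.17 (adjusted p = 0.0291) and below 1.5-fold. The tenocyte marker sum was 62.2 to 64.8 CPM in WT and 54.7 to 90.2 CPM in KO, and *Kera* was at 0 in all WT libraries with at most 3 counts in KO. Most of the WT sum came from *Fmod* (mean 32.8 CPM) and *Tnmd* (mean 26.2 CPM), and *Fmod* was at 56.7 CPM in KO replicate 2.

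Of the partners of the Runx proteins, 1 of 22 tested genes was higher and none lower, with a median of -0.01, and 15 passed the adjusted p alone, against 14.2%, 7.27% and 56.8% of all tested genes. The called gene was *Tle1*, a Groucho corepressor gene, at a log2 fold change of 0.60 ± 0.06 (SE, adjusted p = 4.92e-05), just past 1.5-fold. The call was lost without WT replicate 3 or KO replicate 1. *Cbfb*, the DNA-binding partner of all 3 Runx proteins, was at -0.39 ± 0.04 (adjusted p = 5.81e-05) and, like *Runx1* and *Runx2*, was lower by less than 1.5-fold. The genes with the most counts, *Yap1*, *Smurf1* and *Tle5*, were at -0.13, -0.24 and 0.31.

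**Figure D4:**
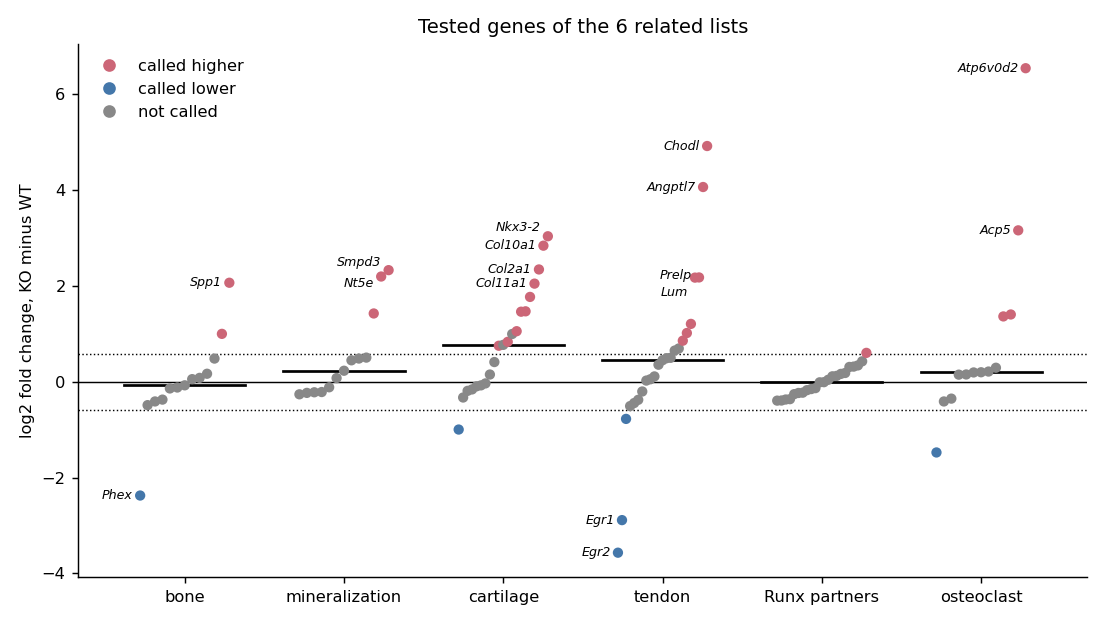
Log2 fold change (KO minus WT) of each tested gene of 6 lists related to the 10 genes; thick lines are list medians and dotted lines mark 1.5-fold. Medians run from -0.08 (bone) to 0.77 (cartilage); the fitted values of *Atp6v0d2*, *Chodl* and *Nkx3-2*, at most 3 counts in each WT library, depend on the prior count of the fit.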

How the data were processed

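RNA from WT and *Aff3ir-ORF2*-/- MEFs was sequenced in paired ends on a DNBSEQ platform, and the authors filtered the reads with SOAPnuke. The estimated counts per gene and library deposited by the authors were not normalized. Their processing notes name build mm8, and the aligner, counter and strand setting are not given in the sources used here. Of the values, 10.6% to 11.3% per library were not whole and were rounded.

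Genes were filtered with filterByExpr (minimum count 10, minimum total count 15), scaled by TMM and tested with edgeR 4.0.16 (quasi-likelihood, robust) in R 4.3.3, with Benjamini-Hochberg adjustment over all tested genes. A called gene had an adjusted p below 0.05 and a fold change of at least 1.5. Alternatives used limma 3.58.1 and DESeq2 1.42.0. A quasi-likelihood fit without robust estimation and the spacing of Runx motifs were chosen after seeing the data. The fit was tested on simulated data. Promoters came from RefSeq (GRCm38.p6) and exon lengths from GENCODE M21 (GRCm38). Figures were drawn with matplotlib 3.10.9.

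The genes and lists were chosen with earlier results of these data known. Of each related list, the text names up to 6 called genes by adjusted p, up to 3 with the most counts, and those behind a count of 5 or fewer. A gene of the tendon list that this rule names is not reported here.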

Additional observations from a re-analysis of the deposited data

How the results depend on the processing

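No log2 fold change of the 9 tested genes turned under any alternative, and of 133 recomputed values 130 kept their call under both thresholds together, the exceptions being *Acan* without WT replicate 2 or 3 and *Tnmd* without KO replicate 2. On the adjusted p alone, *Tnmd* also went above 0.05 with upper quartile scaling, total counts only, no filter, and without WT replicate 1, 2 or 3 or KO replicate 1 (0.0563 to 0.121). *Alpl* had no value to recompute. Of 270 recomputed counts of calls, 241 stayed within 1.5 times the main count. Leaving out a library gave 0 to 2 of the 10 genes lower, 1 to 3 of the bone list lower, 2 to 4 of the tendon list lower and 0 to 1 of the Runx partners higher. Without KO replicate 2, which stood apart, 4 of the 10 genes were higher and 2 lower.
A minimum of 10 counts in every library left 3 of the 10 genes higher and 0 lower, and 0 of the bone list lower. Higher were 2 of the mineralization list, 8 of the cartilage list, 5 of the tendon list and 2 of the osteoclast list, since fewer genes were tested.
A 2-fold threshold gave 1413 genes called in place of 2802, with 1 bone gene higher, 0 cartilage genes lower, 2 tendon genes lower and 0 Runx partners higher. Without a minimum fold, 7422 genes were called. Then 4 of the 10 genes were lower. The bone list had 3 higher and 4 lower, the mineralization list 7 higher and 4 lower, the cartilage list 2 lower, the tendon list 6 lower, the Runx partners 7 higher and 8 lower, and the osteoclast list 7 higher and 3 lower. The share of calls that were higher was 66.1%, 77.6% at 2-fold and 51.6% without a minimum fold.
Samples with the same number did not deviate together (correlations 0.0533, 0.0449 and 0.0225), so the replicate block was only an alternative: it gave 2808 calls, with 4 of the 10 genes higher and 1 lower. Depth limits *Alpl*, *Comp* and *Acan*, with at most 9, 70 and 39 counts in a library.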

Other observations

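The osteoclast list, genes of the bone-resorbing cells that derive from the macrophage lineage, had 4 of 13 tested genes higher and 1 lower, with a median log2 fold change of 0.20 (all 18 listed were in the table), beside 14.2% higher and 7.27% lower of all tested genes. Both the osteoclast-inducing ligand gene *Tnfsf11* (RANKL) and its decoy receptor gene *Tnfrsf11b* (osteoprotegerin), which stromal cells make, rose by 1.40 ± 0.12 and 1.36 ± 0.18 on the log2 scale (SE, edgeR quasi-likelihood test, adjusted p = 1.34e-05 and 9.55e-04). *Acp5*, the tartrate-resistant phosphatase gene, had 6, 4 and 9 counts in WT and 41, 51 and 90 in KO, and *Atp6v0d2*, a proton pump subunit gene, had 1, 0 and 1 and then 53, 65 and 114. Macrophages also express both. *Acp5* and *Atp6v0d2* passed the filter on low counts only through the KO libraries and could not have been called lower. With at least 10 counts in every library, 2 genes of the list were higher. Macrophage marker sums were 1445, 1999 and 2466 CPM in KO replicates 1, 2 and 3. The part of such cells was not tested. *Car2*, a carbonic anhydrase gene, fell by 1.48 on the log2 scale (adjusted p = 0.00186). The genes with the most counts, *Ctsk*, *Clcn7* and *Ostm1*, were at -0.35, 0.21 and 0.15 and not called. The fusion genes *Dcstamp* and *Ocstamp* and the calcitonin receptor gene *Calcr* had at most 3 counts in any library.

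Summed over the 10 skeletal genes, normalized counts were 181 to 184 CPM in WT and 391 to 475 CPM in KO. *Mgp* made up 8.89% to 10.2% of that sum in WT and 60.7% to 64.9% in KO. Without *Mgp* the sums were 163.9 to 165.1 CPM in WT and 145.1 to 166.8 CPM in KO, so the genotypes overlapped. Among the 3 Runx genes, levels per kb of exon put *Runx2* at 43.3% ± 1.35 of the family in WT and 38.3% ± 3.56 in KO, *Runx1* at 52.8% ± 1.17 and 55.7% ± 2.89, and *Runx3* at 3.94% ± 0.219 and 6.06% ± 1.39 (SD, n = 3). These shares depend on the same union exon lengths. The coefficient of variation between libraries was larger in KO than in WT for 8 of the 10 genes. KO replicate 2 was the highest of its genotype for *Runx1*, *Runx3*, *Mgp*, *Scx* and *Tnmd* and the lowest for *Runx2*. For *Alpl*, KO replicates 1 and 2 were equal at 6 counts.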
